A study of Ovis aries with 9 samples.

Results

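The sense-overlapping lncRNAs described here are transcripts that the study assembled from its own reads and named after a protein-coding gene with the ending OT and a number, such as BOK-OT1. All 1515 transcripts with such a name were taken, out of 60784 transcripts in the table. They are called OT lncRNAs below, and the gene named before the ending is called the host. They belonged to 1137 host genes of 39157 genes listed, and they made up 12.0% of the 12620 lncRNA transcripts that carry a name, beside 1677 antisense and 9428 intergenic lncRNAs. The 9 libraries came from ovine granulosa cells (GCs) of thin-tailed Han sheep, collected from the follicles of many ovaries, pooled and grown in culture. All cultures were kept for 8 h without glucose and serum and then for 24 h with 0 mM glucose (control group, CON), 8.4 mM glucose (LOW) or 33.6 mM glucose (HIGH), with 3 libraries in each group. Nothing in the sources states that the 3 cultures of a group came from different animals, so the p-values measure only the spread between these cultures. Levels are FPKM, fragments scaled to transcript length and sequencing depth. The files used here hold no read counts, so the number of fragments behind a level is unknown.

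A sense-overlapping lncRNA is read from the same strand as a protein-coding gene and covers part or all of it, so that it can share exons, introns or a promoter with the messenger RNA. Known members of the class include intronic RNAs, read-through transcripts and RNAs that start upstream of a gene and hold the whole of it within an intron. Transcripts of this kind can follow their host because both are read from the same chromatin, and in short-read sequencing a fragment from a shared stretch has to be divided among the overlapping transcripts by the software. GCs line the ovarian follicle, feed the oocyte and make steroid hormones, and glucose is a main fuel of the follicle.

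The cells carried part of the GC marker set. Of 11 GC markers, 8 were in the gene table and 7 of these had an FPKM of 1 or more in every library, with CYP11A1, the enzyme that starts steroid synthesis, at 135 to 198 FPKM. FSHR, the receptor for follicle-stimulating hormone, lay at 0.218 to 0.564 FPKM. The 8 markers of stroma and smooth muscle were also present in every library, with a summed level of 4681 to 6728 FPKM against 181 to 259 FPKM for the GC markers, while the theca markers summed to at most 0.412 FPKM and the endothelial marker CDH5 was listed at 0. The GC marker sum was 233 to 259 FPKM in CON, 199 to 215 in LOW and between 181 and 209 in HIGH. CYP11A1 was its largest part, with every other GC marker at most 20.1 FPKM, and CYP19A1, FOXL2 and AMH were not listed. The epithelial marker sum was 14.7 to 21.1, 13.8 to 16.4 and 8.26 to 12.1 FPKM in the same order. Of 5 epithelial markers 3 were listed: KRT8 at 5.55 to 17.5, CDH1 at 1.91 to 3.48 and EPCAM at most 0.581 FPKM. The leukocyte markers, of which CD68 (7.45 to 13.1 FPKM) and CD14 (6.15 to 7.89 FPKM) were present in every library and PTPRC was at most 0.697 FPKM, summed to 18.6 to 21.5 FPKM in CON, above all LOW (16.3 to 18.3) and HIGH (15.0 to 18.4) libraries. The part of these 3 marker sets in the results below was not tested. In bulk RNA, fewer cells of a type and less RNA per cell cannot be told apart.

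Most OT lncRNAs were low. Of the 1515, 13 were listed at 0 in every library, 960 were above 0 in every library, and 101 reached an FPKM of 1 in every library. A level of at least 0.1 FPKM in at least 3 libraries, the filter used for tests, was met by 1295, and the other 220 are not part of any tested count. The genomic span from first to last base ranged from 367 to 464157 bases with a median of 17067. In the whole table, OT lncRNAs took 0.0908% to 0.208% of the summed FPKM of a library.

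The median OT lncRNA lay above the median of the other lncRNA classes and below that of annotated transcripts in each of the 9 libraries. On the log2 scale the library medians of OT lncRNAs were higher than those of antisense lncRNAs by 0.75 ± 0.31 (SD, n = 9) and than those of intergenic lncRNAs by 1.00 ± 0.12. They were lower than those of annotated transcripts, with a difference of -0.62 ± 0.41. For each of the 3 differences the exact two-sided sign-flip permutation test gave p = 0.00391, the smallest that 9 libraries allow.

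The median varied more among the control libraries than between the group means. In CON it was 0.532, 0.326 and 0.166 FPKM in replicates 1 to 3. In LOW it was 0.347, 0.296 and 0.283 FPKM, and in HIGH 0.493, 0.424 and 0.350 FPKM. The highest and the lowest library were both controls, 3.21-fold apart, and the groups overlapped. In the paper's list of libraries, CON replicate 1 has the most clean reads and the lowest share of G and C bases. CON replicate 3 has the highest share of G and C bases. Some libraries with glucose run the other way. HIGH replicate 1 has a higher share of G and C bases than every LOW library, but its median of 0.493 FPKM was above all of theirs. LOW replicate 1 has fewer clean reads than CON replicate 3, but a median of 0.347 against 0.166 FPKM. A link of read number or base content with the medians was not tested. The range of the 3 group means, 0.113 FPKM, had an exact permutation p of 0.482 over 280 groupings. Replicate 1 was the highest and replicate 3 the lowest library of each group, and HIGH was above LOW within each of the 3 replicate numbers. The intergenic lncRNAs had the same highest and lowest library, 4.02-fold apart, whereas annotated transcripts spanned only 1.28-fold.

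**Figure D1:**
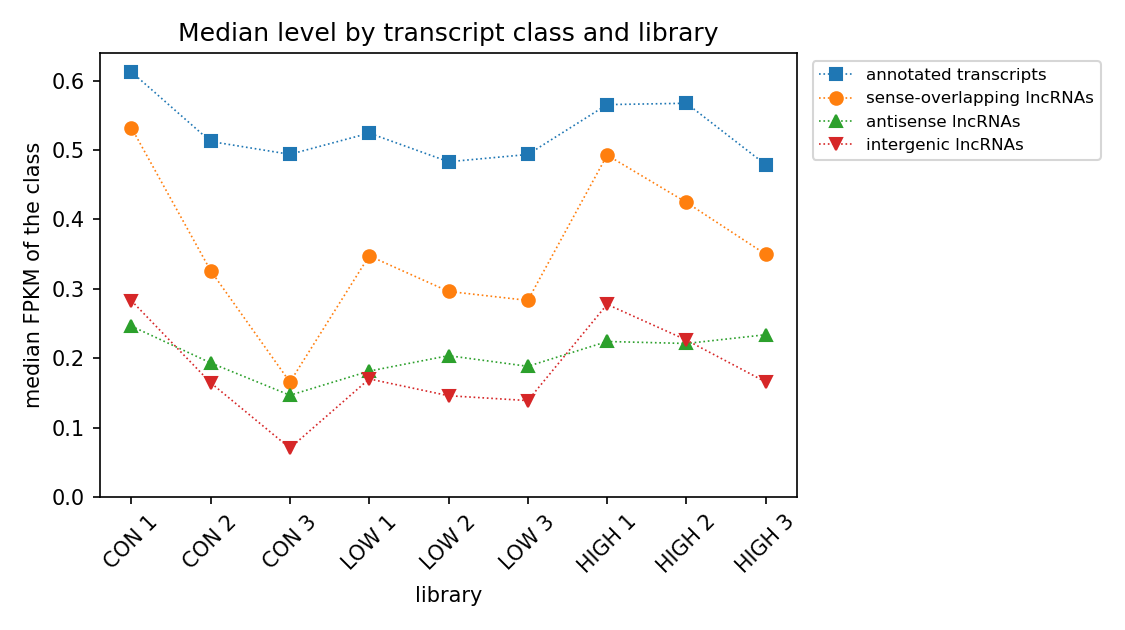
The median FPKM of 4 transcript classes (vertical axis) is plotted for each of the 9 libraries (horizontal axis). OT lncRNAs, drawn as circles, lie above both other lncRNA classes in every library, peak in CON replicate 1 at 0.532 FPKM and are lowest in CON replicate 3 at 0.166 FPKM.

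By position, 760 of the OT lncRNAs (50.2%) crossed an end of the annotated span of the host, 508 (33.5%) lay inside it, 247 (16.3%) contained the whole of it, and none lay outside. The position groups differed in how the lncRNA stood to its host. Annotated host transcripts were listed at 0 in every library for 3.94% of the OT lncRNAs inside a host and for 16.6% of those containing the host. The OT lncRNA was above the annotated host in all 9 libraries for 4.13% of the former and 21.1% of the latter. As a share of the summed FPKM of the gene, the medians by library were higher for OT lncRNAs containing the host by 4.30 percentage points ± 1.31 (SD, n = 9), in 9 of 9 libraries (exact sign-flip permutation test, p = 0.00391). Their own levels did not separate in this way, with a log2 difference of -0.30 ± 0.43 (SD, n = 9) and an exact permutation p of 0.0664.

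The row of a host in the gene table was the sum of all transcripts filed under that gene, the OT lncRNA included, for all 1137 hosts, and antisense transcripts were part of the sum for 177. For this reason 3 host measures are given side by side: the gene row, the other transcripts of the gene, and the annotated transcripts alone. The median OT lncRNA lay below the gene row by 3.19 on the log2(FPKM + 0.1) scale (difference -3.19 ± 0.14, SD, n = 9). It lay below the other transcripts with a difference of -3.08 ± 0.17 and below the annotated transcripts with a difference of -2.00 ± 0.15. The sign of the first difference is fixed, since the gene row contains the lncRNA. The other two had the same sign in 9 of 9 libraries (exact permutation test, p = 0.00391 for each). Pair by pair, 926 OT lncRNAs were below the annotated host in all 9 libraries, 132 were above it in all 9, and for 102, under 59 hosts, the annotated transcripts were listed at 0 throughout.

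**Figure D2:**
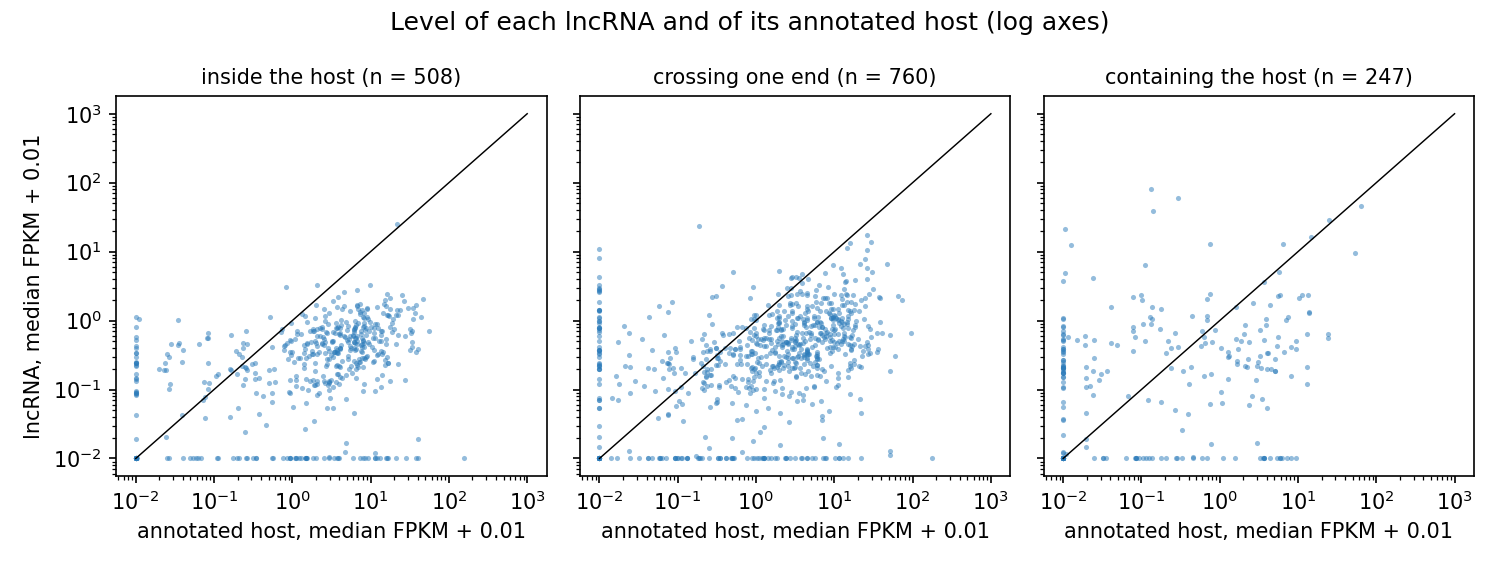
Each point is an OT lncRNA, with the median FPKM over 9 libraries of its annotated host on the horizontal axis and its own on the vertical axis, both with 0.01 added and on log scales, split by position. The diagonal marks equal levels; points above it are more frequent among the 247 OT lncRNAs that contain the host than among the 508 inside it.

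The OT lncRNAs of highest level were mostly of the kind that contains its host. SMIM3-OT1 (chromosome 5, 59645309 to 59665506) had 68.7, 82.9 and 101 FPKM in CON, 79.5, 81.2 and 79.8 in LOW and 53.3, 75.3 and 82.5 in HIGH. The annotated transcript of SMIM3, which codes for a small membrane protein, spans only 180 bases within it and was at 0.0871 to 0.144 FPKM, so that the OT lncRNA made up 94.1% of the gene row at the median. The 3 groups overlapped, and HIGH differed from CON by -0.21 (SE 0.21) on the log2 scale.

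TMEM160-OT1, over a gene for a mitochondrial membrane protein, had 45.3, 61.9 and 86.7 FPKM in CON, 56.6, 60.1 and 60.9 in LOW and 33.2, 46.2 and 72.9 in HIGH, against 0.0103 to 1.28 FPKM for the annotated transcript. GPX8-OT1, with a host that codes for a peroxidase of the endoplasmic reticulum, had 28.9 to 57.9 FPKM and its annotated host 44.4 to 85.6 FPKM. GLRX5-OT1, with a host needed for iron-sulphur cluster assembly, was at 26.2 to 34.2 FPKM and its host at 18.5 to 33.8. These levels set the OT lncRNA close to, or above, the annotated transcripts of its host. Whether the annotated transcripts hold all of the messenger RNA, and how shared fragments were divided, was not tested.

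Among the 10 highest, PMPCA-OT1 was the only OT lncRNA inside its host, which codes for a subunit of the mitochondrial processing peptidase. It had 21.9, 28.1 and 39.0 FPKM in CON, 24.4, 26.9 and 24.9 in LOW and 19.0, 24.3 and 26.6 in HIGH, and the annotated host had 17.8 to 27.7 FPKM. ENHO-OT1 (33.2 to 56.0 FPKM), NUP210L-OT1 (11.5 to 38.0), CDC42SE1-OT1 (3.24 to 24.9), TOR1AIP2-OT4 (10.8 to 19.5) and PRNP-OT1 (8.37 to 19.9) completed the 10. ENHO codes for the metabolic peptide adropin and PRNP for the prion protein. The annotated ENHO transcript was at 34.8 FPKM in CON replicate 1 and at 0.103 to 0.145 FPKM in the other 8 libraries, while ENHO-OT1 was at 34.2 FPKM in that library and did not stand apart.

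Glucose dose was examined for every transcript with limma on log2(FPKM + 0.1), fitted over the 36405 transcripts that passed the filter, with Benjamini-Hochberg adjustment over all of them; a transcript was called at an adjusted p under 0.05 and a log2 difference above 1 in size. No OT lncRNA was called in any comparison: 0 of 1295 in LOW against CON, where 0.0275% of all transcripts were called, 0 in HIGH against CON (0.022% of all) and 0 in HIGH against LOW (0.0302% of all). The lowest adjusted p of an OT lncRNA was 0.490, 0.390 and 0.584 in limma, respectively. At an unadjusted p under 0.05, limma counted 32, 49 and 61 OT lncRNAs, of which 20, 38 and 45 were higher in the group with more glucose (1.42%, 3.63% and 4.33% of all transcripts were). These were 2.47%, 3.78% and 4.71% of the OT lncRNAs, against 2.77%, 5.92% and 6.71% of all transcripts. The median log2 difference of OT lncRNAs was 0.10, 0.31 and 0.22, against 0.03, 0.12 and 0.08 for all transcripts. The first and second moved with the control left out: they were -0.21 and 0.03 without CON replicate 3, and 0.34 and 0.56 without CON replicate 1. Without scaling between libraries the first was -0.00046.

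A library decided part of these counts. Without CON replicate 1, the library of highest OT lncRNA median, the unadjusted count for HIGH against CON was 246, with 225 higher in HIGH, and still 0 adjusted calls. These were 19.6% of the OT lncRNAs in that fit, where 17.7% of all transcripts had an unadjusted p under 0.05. Leaving out each library in turn gave 23 to 53, 33 to 246 and 40 to 81 OT lncRNAs in the 3 comparisons. The shares went from 1.80% (2.67% of all transcripts) to 4.23% (4.50%) in LOW against CON. In HIGH against CON the lowest was 2.63% (3.90%). In HIGH against LOW they went from 3.14% (5.16%) to 6.37% (11.9%). The 3 libraries of a group did not overlap those of the other group for 77 OT lncRNAs (5.95%) in LOW against CON, 81 (6.25%) in HIGH against CON and 152 (11.7%) in HIGH against LOW, while the shares for all transcripts were 7.05%, 9.34% and 16.1%.

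The host genes gave the same result. Of 1116 hosts tested among 21382 genes, limma called 0 in each comparison (0.00468%, 0.00468% and 0% of all genes), and 13, 70 and 80 had an unadjusted p under 0.05, which is 1.16%, 6.27% and 7.17% against 1.75%, 6.6% and 7.33% of all genes. Of these hosts 7, 49 and 58 were higher in the group with more glucose (0.921%, 4.01% and 4.99% of all genes were). The host counts for LOW against CON went from 8 (without HIGH replicate 2, 0.719% of hosts against 1.51% of all genes) to 62 (without CON replicate 1, 5.59% against 4.65%). For HIGH against CON they went from 30 (without HIGH replicate 1, 2.70% against 3.14%) to 310 (without CON replicate 1, 28.0% against 26.7%). For HIGH against LOW they went from 32 (without HIGH replicate 1, 2.88% against 3.62%) to 162 (without HIGH replicate 3, 14.6% against 15.6%). The log2 ratio of OT lncRNA to gene row was called for 0 of 1295 in each comparison, as for 0% of all 2626 OT and antisense ratios, and had an unadjusted p under 0.05 for 47, 59 and 68, or 3.63%, 4.56% and 5.25% against 3.92%, 5.48% and 5.94%. Of these ratios 25, 35 and 42 were higher in the group with more glucose (2.21%, 3.08% and 3.47% of all ratios were). Without CON replicate 1 the unadjusted count for HIGH against CON was 129 instead of 59 (10.3%, against 9.38% of all ratios).

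The OT lncRNA with the smallest p-value was RBM24-OT3 (chromosome 20, 38975149 to 38990419), which contains RBM24, the gene of an RNA-binding protein that regulates splicing. It had 0.851, 0.682 and 0.936 FPKM in CON, 3.65, 2.08 and 2.83 in LOW and 3.78, 2.94 and 1.66 in HIGH. All 6 libraries with glucose were above the 3 controls. The log2 difference was 1.76 (SE 0.31) for LOW against CON and 1.63 (SE 0.31) for HIGH against CON, with limma adjusted p-values of 0.490 and 0.390, and -0.13 (SE 0.31) between HIGH and LOW.

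Other transcripts of RBM24 can be set beside it. RBM24-OT4 and RBM24-OT2 share both ends with RBM24-OT3, and had 0.626 to 0.739 and 0.610 to 1.23 FPKM in CON against 0.827 to 1.52 and 0.903 to 1.67 FPKM in the libraries with glucose. The annotated transcript was at 0.00433, 0.00706 and 0.677 FPKM in CON, 1.05, 0.585 and 0.682 in LOW and 2.20, 1.89 and 0.843 in HIGH. RBM24-OT1 went the other way, at 1.99, 1.14 and 0.000338 FPKM in CON and at 0 in all 6 libraries with glucose, and did not pass the filter. Unnamed transcripts with the same ends as RBM24-OT1 were also high only in CON replicates 1 and 2. TCONS_00155295 had 3.38, 1.49 and 0.106 FPKM in CON and at most 0.113 with glucose. TCONS_00155296 had 1.06, 0.700 and 0 FPKM in CON and at most 0.213 with glucose. TCONS_00155298 had 0.696, 0.725 and 0 FPKM in CON and 0 with glucose. The gene row, which sums these transcripts, differed by 0.09 for LOW and 0.31 for HIGH against CON on the log2 scale (limma adjusted p = 1 and 0.66).

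BOK-OT1 (chromosome 1, 257865 to 268600) contains BOK, which codes for a pro-apoptotic relative of BCL2 first described in the ovary. It had 1.77, 1.47 and 3.08 FPKM in CON, was listed at 0 in all 3 LOW libraries, and had 0, 1.16 and 0 FPKM in HIGH. CON lay above LOW in every library, and HIGH replicate 2 was the only library with glucose in which it was found. The limma adjusted p was 0.678 for LOW against CON and 0.755 for HIGH against CON; no fold is given against a group at 0. When HIGH replicate 2 was left out, or when only CON and LOW were fitted, BOK-OT1 became the only OT lncRNA called in LOW against CON, with limma adjusted p-values of 0.0238 and 0.0482.

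Other assembled transcripts of BOK nearly coincide with BOK-OT1. An unnamed transcript that ends 4 bases later had 2.49, 0.846 and 2.15 FPKM in CON, 0 in LOW, and 0, 0.774 and 0 in HIGH, so both were present in the same 4 libraries. An unnamed transcript ending 1 base earlier had 0.698, 2.24 and 2.48 FPKM in CON, against 2.54, 4.10 and 3.36 in LOW and 2.65, 1.96 and 2.89 in HIGH. Further unnamed transcripts that also end 4 bases later did not share the pattern of BOK-OT1. TCONS_00014113 was found in every library, at 0.296 FPKM or more. TCONS_00014114 was absent only from LOW replicate 2 and reached at most 0.143 FPKM. For TCONS_00014117, which starts later, every LOW library (lowest 0.493 FPKM) was above every control (highest 0.162 FPKM), while HIGH ranged from 0.0693 to 0.526 FPKM. The annotated BOK transcript was listed at 0 in all 9 libraries. The gene row differed by -0.32 for LOW and -0.57 for HIGH against CON (limma adjusted p = 1 and 0.66).

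IGHMBP2, which codes for a helicase, has a pair of OT lncRNAs that share an end on chromosome 21 (45570648 to 45573492 and 45570799 to 45573492). IGHMBP2-OT1 had 0.0442, 0.387 and 0.0847 FPKM in CON, 1.05, 0.930 and 0.897 in LOW and 0.278, 0.0692 and 0.257 in HIGH. IGHMBP2-OT2 had 1.52, 1.08 and 1.75 FPKM in CON, 0, 0.487 and 0.385 in LOW and 1.29, 1.41 and 1.32 in HIGH. LOW was thus the highest group of the former and the lowest of the latter, without overlap with either other group. For LOW against CON the log2 differences were 2.24 (SE 0.53) and -2.22 (SE 0.61), with limma adjusted p-values of 0.901 and 1, and the gene row differed by -0.09.

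The other small p-values belonged to OT lncRNAs of low level. MAP3K1-OT1, with a kinase of the stress-activated pathway as host, had 0.345 to 0.412 FPKM in CON, 0.664 to 0.895 in LOW and between 0.546 and 0.624 in HIGH. LONP1-OT1, with a mitochondrial protease as host, had 0.581 to 0.712 FPKM in CON, 0.478 to 0.630 in LOW and between 0.204 and 0.304 in HIGH, while its annotated host had 10.8 to 16.1, 9.33 to 10.5 and 12.6 to 17.0 FPKM. MPLKIP-OT1 had 0.997 to 1.04 FPKM in CON, 0.840 to 1.13 in LOW and between 0.464 and 0.590 in HIGH. PTGER4-OT1, over the gene of a prostaglandin E2 receptor, was listed at 0 in the 3 LOW libraries and had 0.163, 0.238 and 0.346 FPKM in HIGH. In these 4 the groups that gave the small p-value did not overlap. This is no separate result, since the 4 were picked by p-value. The adjusted p-values of limma were between 0.584 and 1. SBSPON-OT1 was listed at 0 in CON and had 0.471 to 1.43 FPKM in HIGH, VGLL4-OT1 was listed at 0 in LOW and had 0.379 to 0.997 FPKM in HIGH, and TMEM241-OT2 had 0.162 to 1.56 FPKM in CON against 0.0052 to 0.181 FPKM in the libraries with glucose. CD72-OT2 was at 0 in LOW and 0.342 to 0.604 FPKM in HIGH, and PKNOX2-OT1 at 0.295 to 1.02 in LOW and 0 to 0.143 FPKM in HIGH; their limma adjusted p-values were between 0.589 and 1.

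The ratio of lncRNA to gene row gave further pairs with small unadjusted p-values. SREBF1 codes for a transcription factor of lipid synthesis, and SREBF1-OT1, inside it, had 0.194, 0.136 and 0.183 FPKM in CON, 0.553, 0.407 and 0.349 in LOW and 0.389, 0.313 and 0.349 in HIGH. The controls were below all libraries with glucose, while the annotated host had 1.46 to 2.29 FPKM in CON and 1.22 to 1.59 FPKM in LOW; the log2 ratio was higher in LOW than in CON by 1.09 (limma adjusted p = 0.63). YPEL4-OT3 had 0.218 to 0.274 FPKM in CON and 0.386 to 0.977 FPKM in HIGH, with its annotated host at 7.45 to 10.7 and 4.75 to 7.33 FPKM, a log2 ratio higher in HIGH by 1.41 (limma adjusted p = 0.46). DIAPH2-OT1, within the gene of an actin-nucleating formin, had 0.224 to 0.315 FPKM in LOW and 0.581 to 0.926 FPKM in HIGH, with 1.13 for the log2 ratio of HIGH against LOW (limma adjusted p = 0.48).

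**Figure D3:**
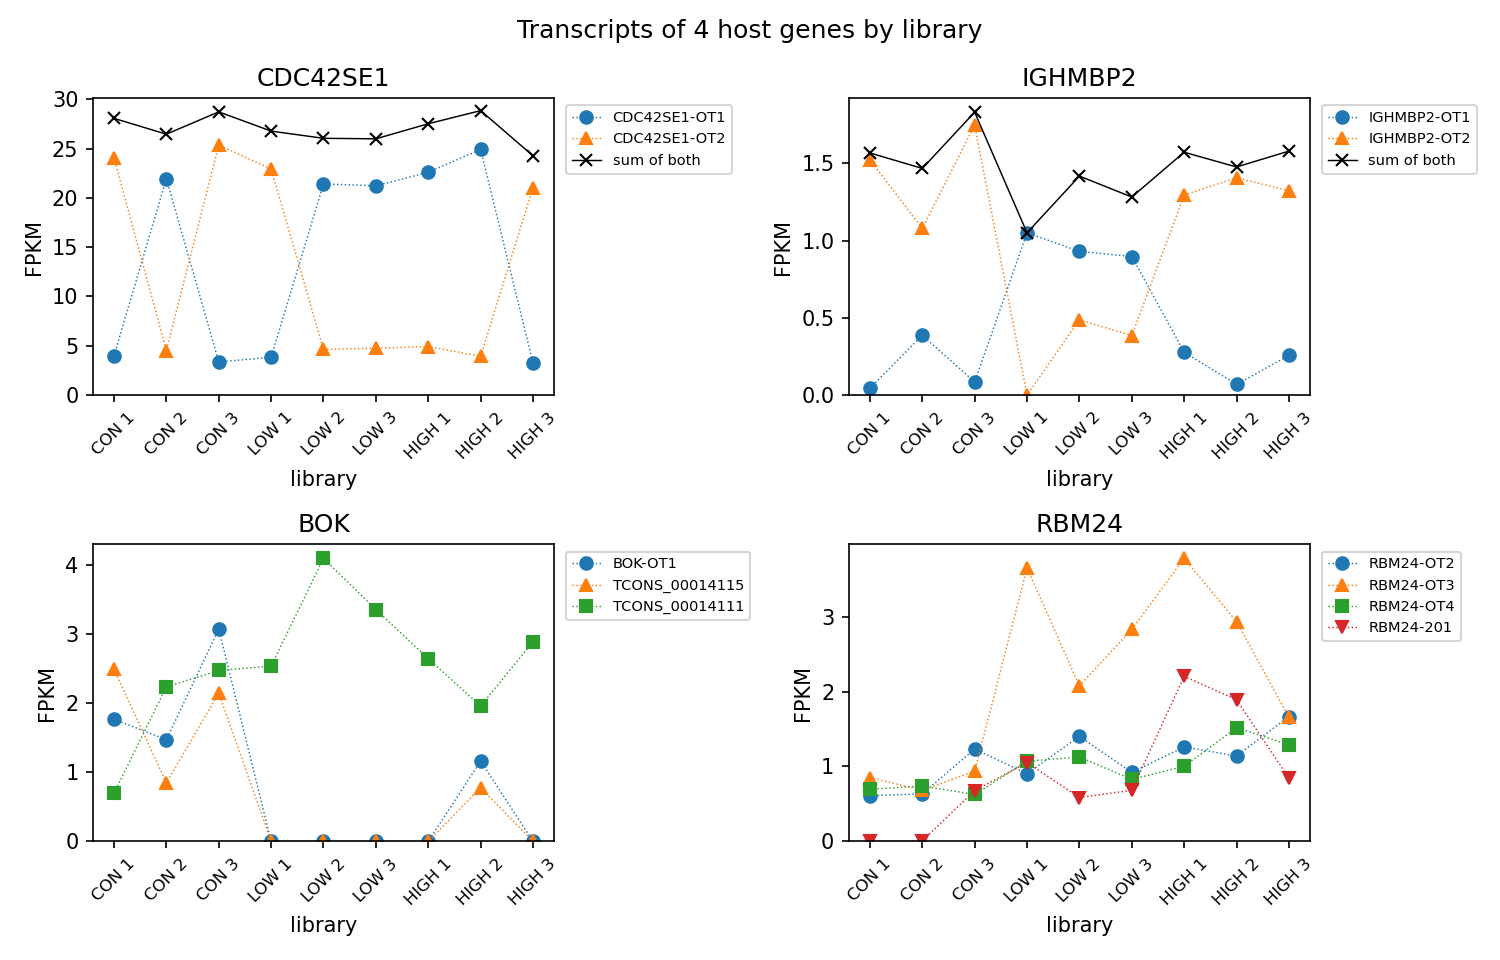
FPKM (vertical axis, from 0) of the OT lncRNAs and of further transcripts of 4 host genes in each of the 9 libraries (horizontal axis); for BOK the names beginning with TCONS are unnamed assembled transcripts, and RBM24-201 is annotated. CDC42SE1-OT1 and CDC42SE1-OT2 exchange levels from library to library while their sum stays between 24.3 and 28.8 FPKM.

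An exchange between transcripts of the same place was seen at CDC42SE1. This gene codes for an effector of the small GTPase CDC42, and its OT lncRNAs OT1 and OT2 have the same first and last base (chromosome 1, 99895096 to 99902594). CDC42SE1-OT1 had 4.0, 21.9 and 3.37 FPKM in CON, 3.84, 21.4 and 21.2 in LOW and 22.6, 24.9 and 3.24 in HIGH. CDC42SE1-OT2 had 24.1, 4.52 and 25.4 FPKM in CON, 22.9, 4.62 and 4.76 in LOW and 4.93, 3.94 and 21.0 in HIGH. In each library the level was high for the first or for the second, never for both, and all 3 groups held libraries of both kinds. Their sum was 24.3 to 28.8 FPKM, with a coefficient of variation of 5.49% against a median of 74.1% for the pair taken singly.

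Such sets were common. Of the OT lncRNAs, 217 shared both ends with another transcript of the host, in 121 sets. Of the 106 sets with an OT lncRNA that passed the filter, the sum over the set varied less between libraries than the median OT lncRNA of the set in 94. The median coefficient of variation over the 9 libraries was 36.2% for the sum and 78.6% for the OT lncRNA; a sum often varies less than its parts even where these are unrelated, and no test was made. RICTOR, a core part of the second complex of the nutrient-sensing kinase mTOR, had such a set of 3. RICTOR-OT1 had 0.0174, 0.0581 and 0.0816 FPKM in CON, 1.2, 0.611 and 0.877 in LOW and 0.132, 1.10 and 0.0112 in HIGH, and RICTOR-OT2 had 1.16, 0.940 and 0.139, then 0.0162, 0.304 and 0.112, then 1.32, 0.158 and 0.912 FPKM. The coefficient of variation of the summed set was 29.5% and the median of its members 109%.

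A few hosts held many OT lncRNAs: 889 hosts had 1, 180 had 2, 36 had 3, 18 had 4, 6 had 5, 7 had 6, and C6orf52 had 14. The 14 of C6orf52 lie on 4 distinct spans, 8 passed the filter, none had a median above 0.258 FPKM, and the annotated transcript had a median of 0. MBNL2, which codes for a splicing regulator, had 6 OT lncRNAs with medians of 1.41 to 7.98 FPKM. MBNL2-OT3 had 3.54, 2.84 and 0.157 FPKM in CON, 2.95, 3.58 and 0.028 in LOW and 6.11, 5.44 and 0.0811 in HIGH. Replicate 3 was the lowest of each group. MBNL2-OT2, with the same ends, had its highest level of each group in replicate 3, at 3.75, 6.25 and 4.91 FPKM. TNIK, the gene of a kinase that acts with Wnt signalling, also had 6, of which TNIK-OT1 reached 7.20 FPKM in CON replicate 1 and 1.5 FPKM in CON replicate 3. CCNI2, DMTF1, NABP1, SKA2 and TMEM123 had 6 each, all with medians of at most 0.667 FPKM.

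Co-variation with the host was measured as Pearson's r over the 9 libraries on log2(FPKM + 0.1), with an exact permutation test over the pairings and Benjamini-Hochberg adjustment over all pairs of OT and antisense lncRNAs. With the gene row as host, the median r of 1295 pairs was 0.61 and 85.6% were positive. An adjusted p of 0.05 was passed by 430 of these pairs (33.2%), of which 419 were positive. Of the antisense pairs 16.3% passed, and of the 2626 OT and antisense pairs together 24.6%. In this measure the lncRNA is part of its own host value. With the other transcripts of the gene as host, the median r of 1243 pairs was 0.26, 63.7% were positive and 169 passed (8.74% of all pairs passed). With the annotated transcripts alone, the median r of 1090 pairs was 0.25 and 65.2% were positive. Of these pairs 111 passed (10.2%, against 2.42% of antisense pairs and 6.19% of all pairs), of which 103 were positive.

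The distribution over all pairs kept its side of 0 in other forms of the measure. Spearman's rho had a median of 0.55 with the gene row, where 315 passed (24.3%, against 12.6% of antisense pairs). With annotated transcripts its median was 0.22, and 34 passed (3.12%, against 0.346% of antisense pairs). Without the 2 libraries farthest from the host's median, the median r was 0.47 and 0.18, and for deviations from the group means it was 0.66 and 0.29. For antisense lncRNAs the medians with the gene row, the other transcripts and the annotated transcripts were 0.37, 0.12 and 0.13; whether the classes differ was not tested. By position, the median r with annotated transcripts was 0.33 for OT lncRNAs inside the host, 0.25 for those crossing an end and 0.13 for those containing it. With the other transcripts of the gene it was 0.38, 0.27 and -0.05. Of the 175 pairs containing the host, 46.3% were positive in that measure and 9 passed, so this position group did not keep its side of 0.

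**Figure D4:**
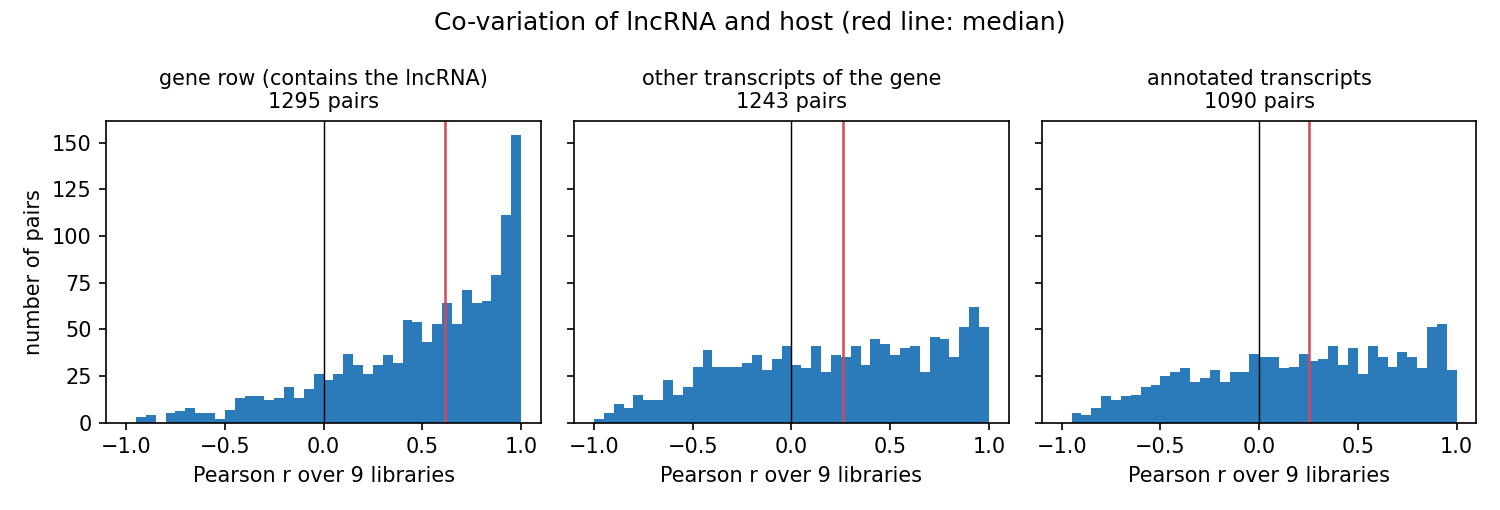
Number of pairs (vertical axis) by Pearson's r over the 9 libraries (horizontal axis) for the 3 host measures; the red line is the median. The peak near 1 in the left panel, where the gene row contains the lncRNA, is much smaller in the right panel, and the medians go from 0.61 to 0.26 and 0.25.

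Many OT lncRNAs followed the order of the libraries in the median of the class. The r of an OT lncRNA with the median of all OT lncRNAs in a library had a median of 0.54, and was above 0.8 for 30.3% of the 1295 tested. For the annotated transcripts of their hosts the median was 0.24, with 22.8% above 0.8 and 8.05% below -0.8. The library median was taken over these same OT lncRNAs and not over the hosts. A positive r of the OT lncRNAs is thus partly built in, and the values of lncRNAs and hosts cannot be compared directly. OT lncRNAs and hosts were also each centred on their own library median, a choice made after seeing the data. Then 278 pairs passed with the gene row (21.5%, against 15.5% of antisense pairs). With annotated transcripts 32 of 1090 passed (2.94%, against 1.73% of antisense pairs). The medians of r for the OT pairs were 0.49 and 0.19. Without CON replicate 3, the library of lowest median, 268 OT pairs passed with the gene row (20.7%) and 8 with annotated transcripts (0.734%).

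The pair with the highest r to annotated transcripts was MPDZ-OT1 (chromosome 2, 81160189 to 81199282), which crosses an end of MPDZ, the gene of a scaffold protein at cell junctions. MPDZ-OT1 had 2.10, 0.877 and 0.203 FPKM in CON, 1.05, 0.670 and 0.846 in LOW and 1.72, 1.39 and 0.760 in HIGH. The annotated MPDZ transcripts summed to 21.6, 13.1 and 5.95, then 14.4, 10.7 and 11.3, then 18.9, 16.4 and 11.8 FPKM. Singly they moved apart: MPDZ-202 had 12.9 FPKM in CON replicate 1 and 2.64 in HIGH replicate 2, and MPDZ-201 had 8.70 and 13.8. The groups overlapped for MPDZ-OT1 and for the sum. With the sum, r was 0.996 (exact permutation p = 1.65e-05, adjusted 0.00557) and rho 0.95 (exact permutation p = 0.000353, adjusted 0.036). Without the 2 libraries farthest from the median r was 0.98, and with library medians removed it was 0.97.

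PUF60-OT1 followed its host in a different library order. PUF60 codes for a splicing factor that binds pyrimidine-rich RNA, and PUF60-OT1 had 3.84, 5.27 and 7.43 FPKM in CON, 5.07, 5.27 and 5.44 in LOW and 3.12, 4.43 and 4.59 in HIGH. Its annotated host had 27.4, 30.1 and 41.4, then 29.6, 32.4 and 30.7, then 21.4, 28.7 and 30.2 FPKM. Here CON replicate 3 was the highest library of both, and r was 0.98 (exact p = 6.06e-05, adjusted 0.0107), rho 0.92 (exact p = 0.00131, adjusted 0.0526), and r without the 2 farthest libraries 0.94. The r with the library median of OT lncRNAs was -0.94. All 3 HIGH libraries were below all 3 LOW libraries for the lncRNA, and the host overlapped.

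For GPRC5B-OT1, lncRNA and host both differed between HIGH and LOW without overlap. GPRC5B is an orphan receptor gene, and GPRC5B-OT1 had 3.27, 2.21 and 1.81 FPKM in CON, 2.38, 2.08 and 1.99 in LOW and 4.74, 3.85 and 2.90 in HIGH. The annotated host had 20.0, 14.7 and 12.8, then 14.7, 13.6 and 12.9, then 27.2, 26.1 and 18.6 FPKM. HIGH lay above LOW, by 0.72 (SE 0.23) for the lncRNA and 0.71 for the gene row on the log2 scale, with limma adjusted p-values of 0.666 and 0.62. WDFY3-OT1, SCN9A-OT1, ARHGAP20-OT1, CHD1L-OT1 and CSNK1G1-OT1 made up the rest of the 8 highest, with r between 0.97 and 0.99.

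The lowest r belonged to CRADD-OT1, with a host that codes for an adaptor of caspase signalling. CRADD-OT1 had 0.603, 0.152 and 0.0295 FPKM in CON, 0.190, 0.0907 and 0.169 in LOW and 0.526, 0.325 and 0.178 in HIGH. The annotated host had 6.52, 9.46 and 11.6, then 7.41, 9.12 and 6.81, then 4.74, 6.81 and 9.35 FPKM, so that it was high where the lncRNA was low. The r was -0.93 (exact p = 0.000209, adjusted 0.0127), rho -0.85 (exact p = 0.00607, adjusted 0.101), and r without the 2 farthest libraries -0.86. COL4A6-OT2, PSIP1-OT1, ORC4-OT1 and IMMP1L-OT3 followed, with r of -0.92 to -0.91, and each of these 5 lncRNAs had an r of at least 0.888 with the library median of OT lncRNAs.

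**Figure D5:**
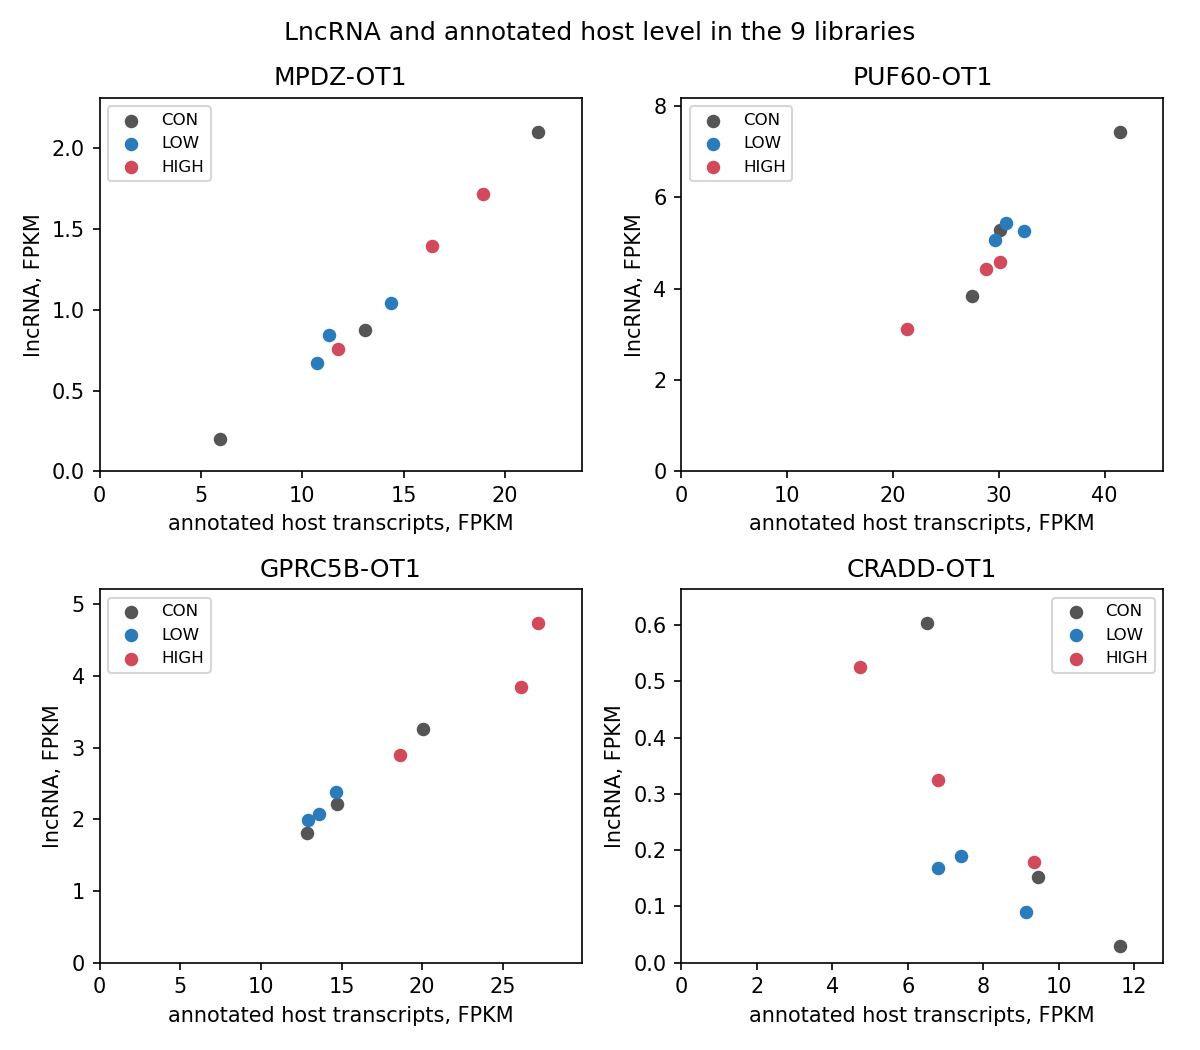
FPKM of the OT lncRNA (vertical axis) against FPKM of the annotated host transcripts (horizontal axis) for 4 pairs, with a point for each of the 9 libraries coloured by group; both axes start at 0. The first 3 pairs rise together, CRADD-OT1 falls as its host rises, and only GPRC5B-OT1 has all HIGH points above all LOW points.

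Hosts with a role in the GC or in steroid synthesis had 4 OT lncRNAs, none of them called in any comparison. PAPPA-OT1, with a host that cleaves binding proteins of insulin-like growth factors, had 3.66, 2.71 and 1.49 FPKM in CON, 2.89, 2.18 and 2.22 in LOW and 4.06, 3.62 and 2.19 in HIGH, against 2.51 to 7.19 FPKM for its annotated host. GATA6-OT1, with a transcription factor of the ovary as host, had 0.259 to 1.83 FPKM in CON, 0.684 to 1.10 in LOW and between 1.28 and 2.06 in HIGH. SMAD1-OT1, with a mediator of BMP signals as host, and ESR2-OT1, with an oestrogen receptor as host, had 0.126 to 1.07 and 0 to 0.350 FPKM over the 9 libraries. The median r of the 4 with annotated hosts was 0.74, and 1 passed the adjusted test.

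Hosts in apoptosis and the p53 pathway had 10 OT lncRNAs under 7 hosts, none called and none with an unadjusted p under 0.05 in any comparison. The list was matched by symbol and does not hold BOK and CRADD, whose OT lncRNAs are given above; BOK-OT1 had unadjusted limma p-values of 0.000913 for LOW and 0.0065 for HIGH against CON. BAX-OT1, within the gene of the pore-forming protein BAX, was the highest, with 2.52, 2.25 and 3.61 FPKM in CON, 2.05, 3.27 and 1.65 in LOW and 2.55, 3.22 and 3.85 in HIGH. The annotated BAX transcripts had 3.71 to 5.79 FPKM, and the groups overlapped for both. ATM-OT1, NFKB1-OT1 and the OT lncRNAs of BIRC3, BCL2L12, TP53BP2 and TP53TG5 ranged from 0 to 1.99 FPKM. The median r of the 9 pairs with annotated hosts was -0.26, with 0 passing the adjusted test.

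Hosts in glucose and energy metabolism had 10 OT lncRNAs under 6 hosts, 9 of them tested and 0 called. GFPT1 codes for the enzyme that leads glucose into the hexosamine pathway, and GFPT1-OT1 was the highest of the list with 12.1, 13.6 and 12.6 FPKM in CON, 14.2, 13.9 and 13.8 in LOW and 12.7, 13.8 and 13.8 in HIGH. The group means were 12.8 ± 0.769, 14.0 ± 0.236 and 13.4 ± 0.651 FPKM (SD, n = 3), and the annotated host was at 27.6 to 31.4 FPKM. LOW lay above CON without overlap, by 0.25 (SE 0.12) on the log2 scale with a limma adjusted p of 1. PFKP-OT1 and PFKP-OT2, with a phosphofructokinase as host, had 0.195 to 0.797 and 0.375 to 0.951 FPKM. PPARA-OT2, with a nuclear receptor of lipid oxidation as host, had 0.881 to 1.22 FPKM in CON and 0.538 to 0.845 FPKM in the libraries with glucose, without overlap. PPARA-OT1, also in the list, shares both ends with PPARA-OT2, and their sum was 1.02 to 1.65 FPKM over all libraries. The coefficient of variation was 14.3% for the sum, against a median of 33.8% for the pair taken singly. The list also took in SLC2A6-OT1, the 3 of RICTOR, and ENOX1-OT1, whose host is matched by its name but codes for a surface oxidase and not for an enolase; 1 member, RICTOR-OT1, had an unadjusted p under 0.05 in LOW against CON.

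In the other lists, hosts that modify chromatin had the highest median r of the 12 lists. They had 27 OT lncRNAs under 16 hosts, with a median r of 0.85 to annotated transcripts, 10 of 25 pairs passing, and 0 called, where all OT lncRNAs had a median r of 0.25 and 10.2% of pairs passing. Several of these OT lncRNAs share a host, and without CON replicate 3 only 8 of all 1090 pairs passed, so not all of the 10 held. TET2-OT1, with an enzyme that oxidises methylated cytosine as host, had 3.69, 2.27 and 1.04 FPKM in CON, 2.46, 1.97 and 2.10 in LOW and 3.31, 3.00 and 2.57 in HIGH, with its annotated host at 1.37 to 7.01 FPKM. Kinases and phosphatases had a median r of 0.76 over 18 pairs (3 passing), small GTPase regulators 0.44 over 28 (8 passing), and cytoskeletal hosts 0.56 over 13 (1 passing). RNA processing, ubiquitin, matrix, solute carrier and transcription factor hosts had medians of 0.45, 0.39, 0.37, 0.30 and 0.31, with 1, 2, 1, 1 and 3 passing.

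By dose, the 12 lists held no call. The median log2 difference of HIGH against CON ranged from 0.09 for matrix hosts to 0.47 for chromatin hosts, against 0.31 for all OT lncRNAs tested. In the RNA processing list the highest level after that of MBNL2-OT1 was that of DDX19A-OT1, with an RNA helicase as host, at 7.61 to 8.34 FPKM in CON, 6.51 to 7.15 in LOW and between 7.93 and 8.38 in HIGH, so that LOW lay below both other groups without overlap. In the kinase list PTPN18-OT1, with a tyrosine phosphatase as host, had 2.83, 3.47 and 5.16 FPKM in CON, 3.12, 3.90 and 4.69 in LOW and 1.92, 2.23 and 2.85 in HIGH, and made up 90.4% of its gene row at the median. Without overlap, HIGH lay below LOW by a log2 difference of -0.78 (SE 0.29, limma adjusted p = 0.705).

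The last host was chosen after its values were seen. TMEM30A, the gene of a subunit of lipid flippases, had 41.1, 45.7 and 29.5 FPKM in CON, 49.5, 47.9 and 46.8 in LOW and 38.9, 9.08 and 6.87 in HIGH. Replicates 2 and 3 of HIGH were thus below all other libraries, and HIGH replicate 1 was not. The limma adjusted p was 0.657 for HIGH against CON and 0.615 for HIGH against LOW, and without HIGH replicate 1 it was 0.00708 and 0.00313, the only host called in any fit that left out a library. TMEM30A-OT1 had 0.664, 0.223 and 0.0841 FPKM in CON, 0.309, 0.268 and 0.394 in LOW and 0.654, 0.409 and 0.379 in HIGH. It was thus also lower in replicates 2 and 3 of HIGH than in replicate 1, but not below all other libraries. TMEM30A-OT2 was listed at 0 throughout.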

How the data were processed

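The authors depleted ribosomal RNA, sequenced the libraries on an Illumina platform, aligned with HISAT2, assembled transcripts with StringTie, and kept lncRNAs by 3 coding-potential filters; they used HTSeq 0.6.0 to count reads per gene, and the submitters' processing notes also name STAR 2.5.1b and TopHat2, with no role. The deposited transcript and gene values are FPKM by the authors. The deposited table of transcript read counts held a score, FPKM times genomic span times a factor per library (within 3% for the transcripts checked), and no reads, so it gave no depth and entered no test; the gene read counts were not used. The genome build and the handling of strand are not given in the sources used here, so coordinates are as deposited, no sequence was read, and sense is as named by the authors.

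FPKM were divided by a median factor per library (features of at least 1 FPKM in every library), given a pseudocount of 0.1 and fitted with limma 3.58.1 in R 4.3.3, with all 9 libraries in a model with 3 groups, for features that reached 0.1 FPKM in 3 libraries and spanned 300 bases or more. Levels in the text are FPKM without that factor. Transcripts of 9978 genes without a symbol carried another library factor and were left out. Correlations and permutation tests used Python 3.11.15 and scipy 1.17.1. The limma and correlation steps were tested on simulated data. Members and lists were chosen with earlier results of these data known. Named are the 3 smallest p-values in each direction, the 10 highest levels, the 8 highest and 5 lowest r, hosts with most OT lncRNAs, hosts in the GC, apoptosis and glucose lists, and up to 2 of the highest level in other lists; the pairs by r were taken with annotated hosts, and CDC42SE1, RBM24, SMIM3, TMEM30A and the second of each IGHMBP2 pair were chosen after their values were seen.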

Additional observations from a re-analysis of the deposited data

How the results depend on the processing

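Alternatives were another pseudocount, filter, scaling or host measure, fits of only 2 groups, a replicate block, and leaving out each library. Calls stayed at 0 except in a few fits: with only the 2 groups, 1 OT lncRNA and 1 ratio in LOW against CON (BOK-OT1 in each); and, leaving out a library, 0 to 1 OT lncRNAs in LOW against CON, 0 to 1 hosts in each comparison with HIGH and 0 in LOW against CON, and 0 to 1, 0 to 2 and 0 to 1 ratios (BOK-OT1 and MYOCD-OT1 without HIGH replicate 2, CD72-OT1 without CON replicate 2). The cause was not tested. MYOCD-OT1 had 0.159 to 0.493 FPKM in CON, 0.128 to 0.320 in LOW and between 0 and 0.224 in HIGH.

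The 430 correlated pairs (33.2%) became 169 (13.6%) with the other transcripts as host and 111 (10.2%) with annotated transcripts, where the lncRNA no longer counts in its host. At 1 FPKM or more in every library they were 56 of 101, by its construction (55.4%, against 47.3% of antisense pairs). They were 278 (21.5%) with library medians removed, and 268 to 400 (20.7% to 30.9%) leaving out a library. The median r of 0.61 became 0.26, 0.25, 0.79 and 0.49, and 0.55 to 0.66 leaving out a library. The level difference stayed between -3.22 and -3.15 leaving out a library and was -1.86 with a pseudocount of 1.

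Replicate numbers were shared between groups, but same-numbered libraries deviated together only weakly (correlations of -0.0061 to 0.242, 3 of 9 above 0.1; 13 of 18 best with their own number). With the replicate block limma made 0 calls of OT lncRNAs, hosts and ratios, unadjusted counts were 31, 78 and 96 OT lncRNAs (2.39%, 6.02% and 7.41%, against 3.49%, 10.3% and 11.3% of all transcripts) and 21, 171 and 167 hosts (1.88%, 15.3% and 15.0%, against 2.59%, 14.9% and 15.6% of all genes), and the median r of the pairs was 0.59. With groups permuted only within a replicate number, an alternative added after seeing the data, the range of group means of the OT lncRNA median had an exact p of 0.306 over 216 permutations.

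The deposited transcript counts are rescaled FPKM and the gene read counts were not used, so the planned DESeq2 and edgeR fits were not run. The paper lists clean reads per library, but the number of fragments behind each FPKM is unknown. This leaves the precision of low OT lncRNAs unknown too.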
